A study of Mus musculus with 4 samples.

Results

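The 10 genes described here, Jun, Junb, Jund, Fos, Fosb, Egr1, Egr2, Nr4a1, Atf3 and Myc, encode transcription factors of the immediate early class. They were taken by gene symbol: every probe set, the group of probes that gives 1 signal, whose single symbol in the platform annotation is one of these 10 was included. This gave 15 probe sets for 10 of the 8251 named genes on the array, and 11 of the 15, covering all 10 genes, were bright enough to be tested. The 4 arrays, of the 1-colour type, were hybridised with RNA of mouse whole heart tissue, 2 for wild-type and 2 for heterozygous mice. Both groups were adult males, 8 to 16 weeks old, on the background named 129/Black Swiss, and no treatment is named in the labels. Each array was hybridised with RNA pooled from 5 hearts, so differences between single animals are not visible, and nothing in the labels says that the pools of a genotype came from separate animals. The p-values therefore measure the spread between these 4 samples only.

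Immediate early genes are switched on within minutes of a stimulus by factors already present in the cell, without new protein synthesis, and their mRNAs decay fast. Kinase cascades that end on serum response factor, its ternary complex partners and CREB drive them, and phosphatases, RNA-decay factors and corepressors that they induce shut them off. In heart they are known to respond to load, adrenergic stimulation and ischaemia, and in lymphocytes to antigen receptor signalling. JUN proteins (Jun, Junb, Jund) pair with FOS proteins (Fos, Fosb) or with ATF proteins such as Atf3 to form AP-1, Egr1 and Egr2 are zinc finger factors, Nr4a1 is an orphan nuclear receptor, and Myc pairs with Max and drives growth and ribosome production.

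The tissue label was compared with marker genes first. Of 13 tested cardiomyocyte markers, 11 were higher in the heterozygous pools and none lower (median log2 change 0.63; 5 higher without heterozygous pool 1, 2 without heterozygous pool 2, 3 with cyclic loess), and their summed signal was 595447 to 654221 in wild-type and 920873 to 950160 in heterozygous pools. Lymphocyte and thymus markers moved the other way. Of 19 tested, 18 were lower (median log2 change -3.08), and their summed signal was 163758 to 163893 in wild-type against 21547 to 22142 in heterozygous pools. None of them was below the signal floor in every pool. Rag1, which cuts antigen receptor genes in immature lymphocytes, had signals of 25556 and 28828.2 in wild type, labelled whole heart, and of 3183.4 and 3250.8 in heterozygotes. All 17 tested cell cycle genes were lower as well (median log2 change -2.37). In both lists some heterozygous means lay below 349, the lowest mean signal of a tested probe set. They were those of Aurka (169.2), Top2a (316.6), Rag2 (135.5) and Ptcra (100.2), which entered the test through their wild-type signal. Endothelial markers (8 of 10 higher, median 0.88; 3 without heterozygous pool 1) and fibroblast markers (7 of 8 higher, median 0.76; 3 without wild-type pool 1, 4 and 2 without heterozygous pools 1 and 2) had higher calls only, while macrophage markers had 1 higher and 1 lower among 11 (median 0.10). With dim probe sets kept in the test, 0 cardiomyocyte, 3 endothelial and 1 fibroblast markers were higher. With cardiomyocyte centring, endothelial markers had 3 higher and 1 lower (median 0.28) and fibroblast markers 2 higher and 1 lower (median 0.16). Markers of other tissue shifted as well. Of those tested, 2 of 2 lung epithelium markers were higher and 6 of 9 skeletal muscle markers lower (2 with dim probe sets kept). What part these shifts had in the results below was not tested. In such bulk samples, fewer cells of a type, whether of heart or of other tissue, and less RNA per cell cannot be told apart.

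Promoter sequence is shown for 5 of the genes that changed, the last 100 bases before the RefSeq start, because Jun and Atf3 rose where Egr2, Fos and Jund fell. RefSeq entries of build GRCm38.p6 were used for 8 of the 10 genes (12 starts, 5 of them for Egr2). For the 10 genes, though not for the shares over all promoters, entries on an excluded chromosome were not searched. They were searched over 250 bases before the start, on both strands except TATAAA, for 7 motifs. These were the CRE half-site TGACGT, the AP-1 site TGANTCA, the EGR site GCGTGGGCG, the E-box CACGTG and the TATA motif spelled TATAAA. The CArG box that binds serum response factor was searched too and is given by name. The last was TGANNTCA, a loose pattern that takes any middle bases, so not every match is an AP-1 or CRE-like site. It overlaps TGACGT in a full CRE. Capitals mark matches.
Jun (chr4:95052223-95052322, minus strand): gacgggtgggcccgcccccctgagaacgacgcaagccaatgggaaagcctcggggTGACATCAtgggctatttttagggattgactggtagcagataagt
Atf3 (chr1:191183334-191183433, minus strand): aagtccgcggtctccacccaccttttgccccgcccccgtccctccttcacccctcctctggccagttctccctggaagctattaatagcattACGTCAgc
Egr2 (chr10:67537769-67537868, plus strand): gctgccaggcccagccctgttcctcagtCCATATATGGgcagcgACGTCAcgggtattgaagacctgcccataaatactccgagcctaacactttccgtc
Fos (chr12:85473790-85473889, plus strand): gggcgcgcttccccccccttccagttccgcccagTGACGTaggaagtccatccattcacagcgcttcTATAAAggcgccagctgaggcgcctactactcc
Jund (chr8:70697639-70697738, plus strand): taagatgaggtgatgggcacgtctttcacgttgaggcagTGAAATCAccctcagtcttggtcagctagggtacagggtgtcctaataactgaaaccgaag

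The Jun window held TGANNTCA starting 45 bases before the start and the Jund window held it at 61. This motif occurs in 11.9% of 32851 promoters searched over the same length. A CRE half-site (6.47% of promoters) lay in Fos at 66 bases, in Atf3 at 8 and in Egr2 at 56. Of these genes only Egr2 had a CArG box in the window, at 72 bases (1.47% of promoters), and Fos had TATAAA at 33 bases (7.59%). Sites further upstream, and genes without a searched entry, are not covered. Neither the AP-1 site TGANTCA (6.75%) nor the EGR site (0.536%) was found in any of the 12 windows, and an E-box (6.02%) was found in 1, at an upstream start of Egr2. The TGANNTCA matches differed in their middle bases, TGACATCA in Jun and TGAAATCA in Jund. Whether any of these motifs had a part in the changes was not tested.

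The first question was whether the 10 genes moved together between the genotypes. They did not. Of 11 tested probe sets, 2 were higher in the heterozygous pools (Jun and Atf3), 5 were lower (Jund, Fos, Egr1, Egr2 and Myc), and 4 did not pass (both for Junb, and those of Fosb and Nr4a1). Calls rest on limma's adjusted p, taken over all 7453 tested probe sets, below 0.05. Over all of these 38.3% were called, 17.9% as higher and 20.4% as lower, and 63.6% of these 11 were. The wild-type and heterozygous pools were separate in 8 of the 11, or 72.7%, close to the 70.1% among all those tested. Without the filter on dim probe sets only the calls of Jun and Fos stood (limma adjusted p = 0.0395 and 0.0363), and those of Atf3, Jund, Egr1, Egr2 and Myc ended (0.0519 to 0.126). Taking the brightest tested probe set of every gene, the median log2 change (heterozygous minus wild type) of the 10 genes was -0.41, against 0.02 over 5692 tested genes.

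**Figure D1:**
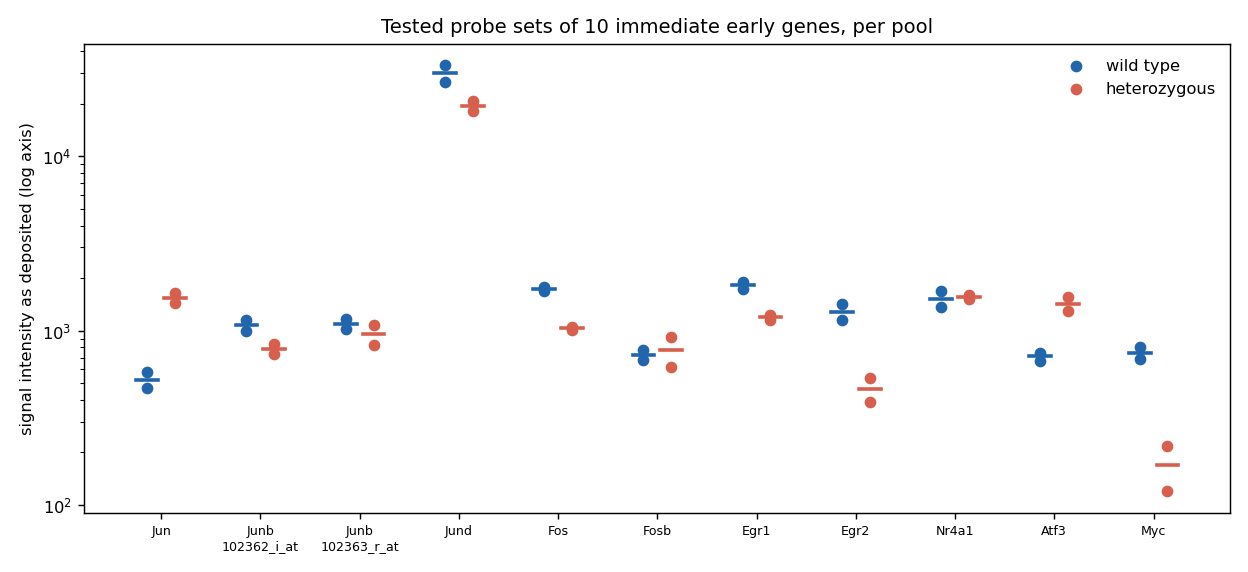
Signal intensity as deposited (vertical log axis) of the 11 tested probe sets of the 10 genes (horizontal axis); each dot is a pool of hearts, blue for wild type and red for heterozygous, and bars are means of 2 pools. Dots separate by genotype for Jun, Atf3, Jund, Fos, Egr1, Egr2, Myc and 1 of the Junb probe sets, and overlap for Fosb, Nr4a1 and the other Junb probe set; levels of different genes are not comparable because probes differ.

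Jun, the most potent activator among the JUN proteins, rose most. Its signal was 466.2 and 579.3 in wild type and 1644.8 and 1431.3 in heterozygotes. Both heterozygous values were well above both wild-type values. The means were 522.8 ± 80.0 and 1538 ± 151 (SD, n = 2), a 2.95-fold rise (log2 change 1.56, SE 0.22, limma adjusted p = 7.9e-04). This change lay above 93.5% of all tested probe sets in size. Leaving out any pool gave log2 changes from 1.41 to 1.72, and the call stood each time.

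Jund, the family member known for steady rather than induced expression, fell. Its signals were 33308.1 and 26698.2 in wild-type and 20739.9 and 18164.5 in heterozygous pools, without overlap. The fall was 1.54-fold (log2 change -0.62, SE 0.15, limma adjusted p = 0.0120). It did not pass with arrays shifted to a common median (-0.44), without heterozygous pool 1 (-0.72) or without heterozygous pool 2 (-0.52).

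Junb, which often restrains Jun, gave no call on either probe set. On the dimmer probe set its signals were 1153.4 and 995.8 in wild-type and 838.7 and 729.7 in heterozygous pools, lower without overlap. The log2 change was -0.45 (SE 0.21, limma adjusted p = 0.115), with a 95% interval from -0.92 to 0.02. On the brighter one, annotated to the same transcript record, the wild-type signals of 1170.8 and 1017.3 overlapped with the heterozygous ones of 825.1 and 1081.8 (log2 change -0.21, interval -0.70 to 0.28). The probe sets of Junb differed most in heterozygous pool 2. With arrays centred on cardiomyocyte markers both passed as lower (-1.05 and -0.81).

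Because a ratio of 2 probe sets on the same array does not change when all its signals are multiplied by 1 factor, the JUN family was also compared by ratios, a choice made after the values were seen. Relative to the wild-type mean, the log2 ratio of Jun to Jund was -0.32 and 0.32 in wild type and 2.19 and 2.18 in heterozygotes. The ratio of Jun to Junb (brighter probe set) was -0.26 and 0.26, then 2.07 and 1.47. Junb to Jund shifted less, from -0.06 and 0.06 to 0.12 and 0.70. In each case the genotypes did not overlap. For Jun to Jund this had to follow, because both genes had separate pools in opposite directions. Quantile normalization and cyclic loess are no such factor: they gave log2 changes of 1.72 and 1.66 for Jun and of -0.78 and -0.90 for Jund. With 2 pools against 2, the smallest two-sided p that an exact permutation test can give is 0.333, so these ratios carry no test.

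Fos, the classic partner of Jun, fell. Its signals of 1686.4 and 1785.9 in wild-type and 1013.9 and 1052.4 in heterozygous pools formed tight, separate pairs. The fall was 1.68-fold (log2 change -0.75, SE 0.17, limma adjusted p = 0.00971). It no longer passed without wild-type pool 2 (-0.71) or without heterozygous pool 1 (-0.72). A second Fos probe set was too dim for the test (mean signal 114.8). Its values were 85.7 and 145.6 in wild-type against 137.6 and 90.3 in heterozygous pools, which overlapped.

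Fosb, a close relative of Fos, varied between pools of one genotype. Its wild-type signals were 678.7 and 775.4, and its heterozygous signals, 618.5 and 924.8, lay on either side of them. The log2 change was 0.06 (SE 0.26, limma adjusted p = 0.878) with a 95% interval from -0.53 to 0.65, so changes of up to 1.57-fold upwards and a fall to 0.693 of the wild-type level are within its error. The sign turned without wild-type pool 1 (-0.04), without heterozygous pool 2 (-0.23) and with cardiomyocyte centring (-0.54). Relative to the wild-type mean, the log2 ratio of Fos to Fosb was 0.05 and -0.05 in wild-type and -0.55 and -1.07 in heterozygous pools. That of Jun to Fos was -0.12 and 0.12, then 2.44 and 2.18, the widest shift among the ratios computed. Its separation had to follow from the separate pools of Jun and Fos in opposite directions.

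Atf3, a stress-induced factor that mostly represses its targets, rose together with Jun. The brightest of its 3 probe sets had signals of 673.1 and 748.2 in wild-type and 1289.6 and 1564.7 in heterozygous pools. The groups were separate, and the rise came to a log2 change of 1.00 (SE 0.20, limma adjusted p = 0.00503). It kept its call without any one pool (0.86 to 1.14) but lost it with cardiomyocyte centring (0.40). The f suffix in the name of this probe set marks probes that similar sequences may share. Of its other probe sets, one had 50.1 and 49.5 in wild-type and 80.4 and 180.5 in heterozygous pools, and the other lay below the floor of 36.4 in all 4. Neither was tested.

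The early growth response genes both fell. Egr1, which relays growth factor and mechanical signals, had signals of 1893.2 and 1741.3 in wild-type and 1223.1 and 1155.8 in heterozygous pools, without overlap. The fall was 1.53-fold (log2 change -0.61, SE 0.17, limma adjusted p = 0.0222). The call ended when any pool was left out (-0.55 without wild-type pool 1, -0.67 without wild-type pool 2, -0.65 without heterozygous pool 1, -0.57 without heterozygous pool 2) and under median scaling (-0.43) or quantile normalization (-0.47). Its other probe set was too dim for the test and spread from 12.6 to 179.4 between the heterozygous pools alone.

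Egr2, which acts in myelination and in the selection and restraint of T cells, fell further. Its signals were 1144.2 and 1413.6 in wild-type and 388.7 and 532.7 in heterozygous pools, so that the higher heterozygous value was below the lower wild-type value. The fall was 2.79-fold (log2 change -1.48, SE 0.25, limma adjusted p = 0.00199) and kept its call without any one pool (-1.71 to -1.26). Relative to the wild-type mean, the log2 ratio of Egr2 to Egr1 was -0.21 and 0.21 in wild-type and -1.14 and -0.60 in heterozygous pools, again without overlap. In the same pools the median log2 change of the lymphocyte and thymus markers was -3.08, and its part in the fall of Egr2 was not tested.

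Nr4a1, which immature T cells induce on antigen receptor signalling, had signals of 1373.3 and 1677.8 in wild-type and 1603.9 and 1521.7 in heterozygous pools. The heterozygous pair lay inside the wild-type pair. Its log2 change of 0.04 (SE 0.18, limma adjusted p = 0.881) had a 95% interval from -0.37 to 0.45, which leaves room for a change of up to 1.37-fold. The sign turned without wild-type pool 1 (-0.10) and with cardiomyocyte centring (-0.56).

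Myc fell most of the 10 genes. Its signals were 690.3 and 805.4 in wild-type and 119.7 and 217.2 in heterozygous pools. The genotypes were far apart although the heterozygous pools differed from each other more than for any other tested probe set of the 10 genes. The fall was 4.62-fold (log2 change -2.21, SE 0.41, limma adjusted p = 0.00311), larger in size than 96.9% of all tested probe sets. The heterozygous mean of 168.4 lay below 349, the lowest mean signal of a tested probe set, so Myc entered the test through its wild-type signal and the size of the fall rests on a dim group. Without the filter on dim probe sets it did not pass (limma adjusted p = 0.0758). It kept its call without any one pool, with log2 changes of -1.78 without heterozygous pool 1 and -2.64 without heterozygous pool 2. Cell cycle genes (median log2 change -2.37) and lymphocyte and thymus markers (-3.08) fell beside it, and their part was not tested.

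**Figure D2:**
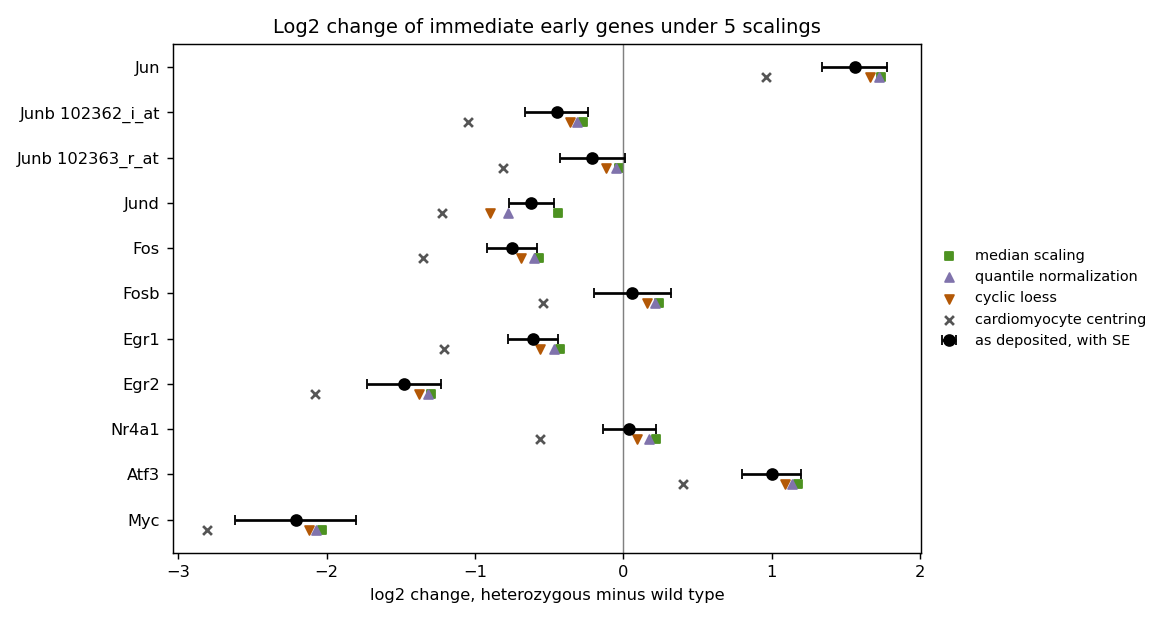
Log2 change (heterozygous minus wild type, horizontal axis) of each tested probe set; black dots with bars give the change on the deposited scale with its SE, and coloured marks give it under 4 other scalings between arrays. Jun and Atf3 lie right of 0 and Jund, Fos, Egr1, Egr2, Myc and both Junb probe sets left of 0 under all 5 scalings, while Fosb and Nr4a1 cross 0 with cardiomyocyte centring.

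How arrays are scaled matters here because many transcripts changed. Over all tested probe sets the median of the log2 changes was 0.00 as deposited. Shifting arrays to a common median moved it to 0.18, quantile normalization moved it to 0.10 and cyclic loess to 0.02. Centring arrays on the cardiomyocyte markers moved it to -0.60. On that last scale Jun (0.96) was still called higher, and Jund (-1.22), Fos (-1.35), Egr1 (-1.21), Egr2 (-2.08) and Myc (-2.81) lower. Both Junb probe sets (-1.05 and -0.81) were then called lower too, while Atf3 (0.40) was not called. With the common median, higher calls made up 62.5% of all calls in place of 46.8%, and with cardiomyocyte centring 5.6%.

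The spread between pools of one genotype, given its own look because these mRNAs are short-lived, was that of an ordinary probe set. Between the wild-type pools the median absolute log2 difference was 0.21 for the 11 probe sets and 0.21 for all tested ones, and between the heterozygous pools it was 0.20 against 0.21. The range was 0.08 to 0.32 in wild type and 0.05 to 0.86 in heterozygotes. Fos (0.08 and 0.05) and Egr1 (0.12 and 0.08) had the smallest differences between the wild-type pools, and small ones between the heterozygous pools. Myc (0.86), Fosb (0.58) and Egr2 (0.45) differed most between the heterozygous pools, at the 95.9th, 88.7th and 81.7th percentile of all tested probe sets. The change between genotypes exceeded the larger of both pool differences in 8 of 11 probe sets (72.7%) and in 60.5% of all tested ones. For Fos the change was 9.05 times that difference, for Egr1 5.06 times and for Jun 4.98 times, while for Myc it was 2.57 times and for Fosb 0.104 times.

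**Figure D3:**
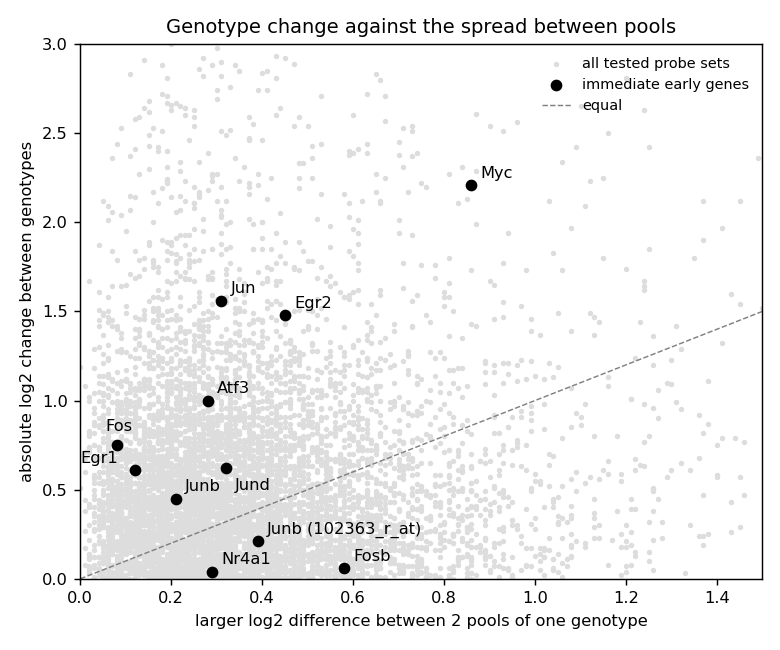
Absolute log2 change between genotypes (vertical axis) against the larger log2 difference between 2 pools of one genotype (horizontal axis); grey dots are tested probe sets, black dots are those of the 10 genes, and the dashed line marks equality (186 probe sets lie outside the axes). The 8 probe sets with separate pools sit above the line; Fosb, Nr4a1 and 1 Junb probe set sit below it.

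Other immediate early genes were read from a list of 54, of which 42 were on the array and 33 were tested. Of these, 12 rose, 5 fell and 16 did not pass (36.4% higher and 15.2% lower, against 19.5% higher and 19.5% lower over all tested genes by their brightest probe set), with a median log2 change of 0.28. Those that rose with the smallest p were Ccn2, a matrix growth factor, with signals of 1820.8 and 1878.7 in wild-type and 4871.9 and 5338.2 in heterozygous pools, and Rhob, a small GTPase, with a log2 change of 1.67 (SE 0.18). Klf4, a factor of endothelium and smooth muscle, had one of 1.35 (SE 0.16) and Per1, an inducible clock gene, one of 1.77 (SE 0.27). Those that fell were led by Pim1, a kinase of blood cells, from 8745.8 and 8891.9 to 4421.8 and 4103.4. Dusp2, a phosphatase of lymphocytes (-0.88, SE 0.19), Klf10 (-0.65, SE 0.16) and Ier2 (-0.74, SE 0.21) followed. Klf10 did not pass with the common median (-0.47) or when wild-type pool 1 (-0.65) or heterozygous pool 1 (-0.59) was left out, nor Ier2 without wild-type pool 2 (-0.57) or heterozygous pool 1 (-0.48). Without the filter on dim probe sets Per1, Dusp2 and Ier2 did not pass. Beside these genes, 8 of 10 endothelial markers were higher (3 higher and 1 lower with cardiomyocyte centring, median 0.28) and 18 of 19 lymphocyte and thymus markers lower, and their part was not tested. With cardiomyocyte centring the split turned to 4 higher and 12 lower (median -0.32), and without heterozygous pool 1 or pool 2 the number higher was 7 or 6.

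Possible partners of the AP-1 proteins and their bZIP relatives, the family that dimerises through a leucine zipper, gave 5 higher, 2 lower and 11 not passing of 18 tested (median log2 change 0.36). That is 27.8% higher and 11.1% lower, against 19.5% for each direction over all tested genes. Cebpb (log2 change 1.27, SE 0.16) and Cebpd (0.92, SE 0.15), induced in acute phase and stress responses, rose, as did Nfe2l1 (0.96), the endoplasmic reticulum stress sensor Atf6 (1.00) and Atf5 (0.86). Bach1, a repressor of haem oxygenase, fell from 5345.9 and 7547.9 to 2383.1 and 2438.3, and Xbp1 fell as well (-0.57; ended with the common median, -0.39, and without wild-type pool 2 or either heterozygous pool). Without the filter on dim probe sets Bach1, Xbp1 and Atf5 did not pass. Atf5 also did not pass when wild-type pool 1 (0.73) or heterozygous pool 1 (0.67) was left out. With cardiomyocyte centring 1 was called higher (Cebpb, 0.67) and 3 lower, with a median of -0.24. Fosl2, the only FOS relative outside the 10 genes that was tested, had a log2 change of 0.53 (limma adjusted p = 0.250).

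Upstream kinases and factors gave 2 higher, 1 lower and 12 not passing of 15 tested (median 0.01). Over all tested genes 19.5% were higher and 19.5% lower, against 13.3% and 6.67% here. Mapkapk2, a kinase below p38, rose from 5784.2 and 5947.1 to 16490.7 and 14557.3 (log2 change 1.40, SE 0.14), and Map2k3, which activates p38, rose with a log2 change of 0.80 (SE 0.16), which did not pass without the filter on dim probe sets or once heterozygous pool 1 was left out (0.75). Mrtfa, a coactivator of serum response factor, fell (-0.73, SE 0.19), a call that ended when any pool was left out, with log2 changes between -0.74 and -0.72. With cardiomyocyte centring the count was 1 higher and 7 lower. The JNK genes that phosphorylate Jun did not pass: Mapk8 had a log2 change of 0.18, Mapk9 one of -0.71 and Mapk10 one of 0.58.

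Of 11 tested feedback inhibitors, Ier3 was higher (0.89), Dusp2 was lower (-0.88) and 9 did not pass (median -0.05, and 0 higher and 6 lower with cardiomyocyte centring). Called shares were 9.09% in each direction, below the 19.5% over all tested genes. Zfp36, which speeds the decay of early mRNAs (-0.15), the MAP kinase phosphatase gene Dusp1 (0.50) and the EGR corepressor genes Nab1 (0.19) and Nab2 (-0.55) were among those that did not pass.

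Partners and targets of Myc were read beside it. In the network of Myc and Max, 7 genes were tested, of which Mxd4 fell (-0.51, SE 0.17; a call lost with the common median, and when wild-type pool 1 or either heterozygous pool was left out) and 6 did not pass, among them Max (0.17). Of 18 tested genes listed as Myc targets, 6 fell and none rose (median log2 change -0.44), where 19.5% of all tested genes fell. The 4 with the smallest p make ribosomes: Npm1 (-1.23, SE 0.14), Nop56 (-1.35, SE 0.17), Ncl (-0.91, SE 0.13) and Fbl (-0.90, SE 0.16). Their relative Nop58 (-1.49) and the folate enzyme gene Shmt1 (-1.15) fell too, Nop58 with a heterozygous mean of 315.1 below the lowest tested mean of 349 and no call without the filter on dim probe sets. Odc1, a classic target, had a log2 change of -0.16 and Cad one of -0.08. With cardiomyocyte centring 15 of the 18 were lower (median -1.04). Cell cycle genes fell alongside (median -2.37).

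Heat shock genes, which handling and stress also induce, rose in 3 of 11 tested cases and fell in 1 (median log2 change 0.28, and -0.32 with cardiomyocyte centring, where 0 were higher and 4 lower). Their shares of 27.3% higher and 9.09% lower compare with 19.5% each over all tested genes. Hspa1a rose from 771.7 and 1020.4 to 1505.3 and 2157.2 and Hspa1b from 944.7 and 1077.4 to 1712.9 and 1546.8, while Dnajb1 fell from 2146.5 and 2125.7 to 1431.1 and 999.5. Hsph1 had a log2 change of 0.54, which turned to -0.05 with cardiomyocyte centring. The count higher was 1 without the filter on dim probe sets, 1 without heterozygous pool 1 and 0 without heterozygous pool 2. As a sign of RNA integrity, the ratio of the control probe set at the end of the Actb transcript to that at its beginning was 1.37 and 1.41 in wild type and 1.80 in heterozygous pool 1. For Gapdh it was 0.842, 0.858 and 0.914. Heterozygous pool 2 had no value for these controls, and whether RNA integrity moved the 10 genes was not tested.

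**Figure D4:**
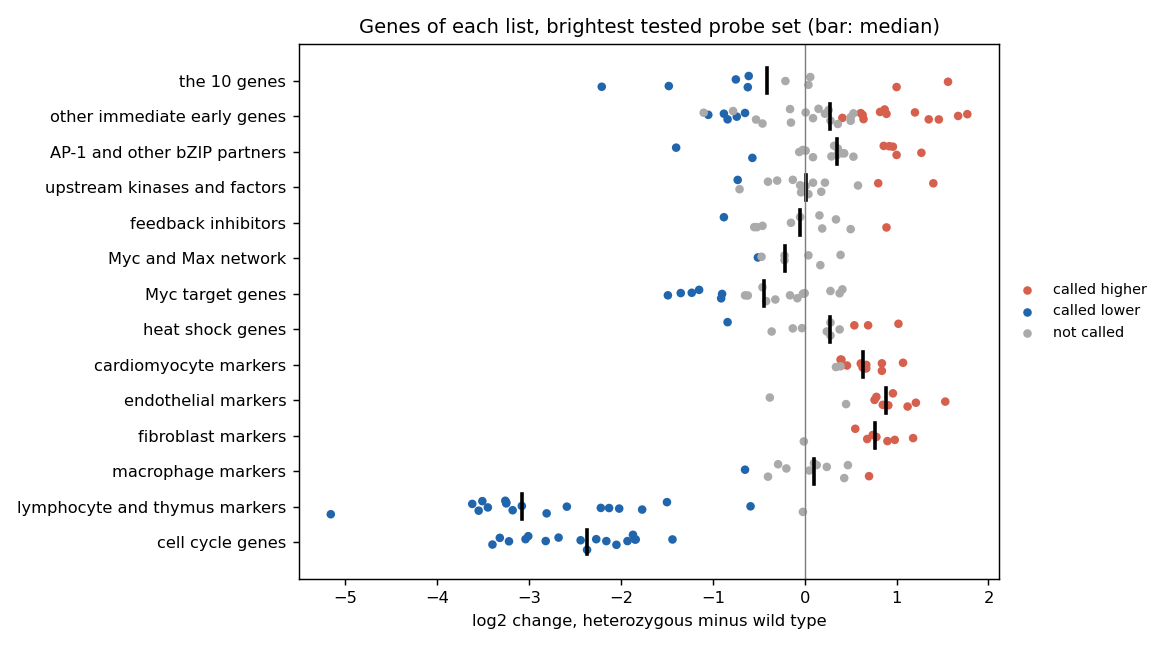
Log2 change (heterozygous minus wild type, horizontal axis) of the brightest tested probe set of each gene in 14 lists (vertical axis), red where called higher, blue where called lower and grey where not called, with a black bar at the list's median. The 10 genes are spread on both sides of 0 (median -0.41), other immediate early genes lie mostly to the right (0.28) and lymphocyte and thymus markers to the left (-3.08).

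Probe sets with the most similar pattern were found by the distance between log2 signals on the 4 arrays, each centred on its own mean, over all named tested probe sets. With 4 arrays, a small distance says little more than that 2 genes changed by a similar amount. Nearest to Jun were Ltbp4 (distance 0.113 log2 units), Frmd5 (0.128) and Peg3 (0.154), and nearest to Atf3 were Emp2 (0.037), Hamp (0.064) and Stard7 (0.066). Myc lay nearest to E2f8 (0.076), Kcnab2 (0.191) and Cd247 (0.201), and Egr2 to Ada (0.057), Casp8 (0.099) and Macroh2a1 (0.114). For Fos they were Erdr1 (0.032), Ctsc (0.041) and Usp3 (0.044). Egr1 was closest to Tug1 (0.014), Mllt3 (0.050) and Gspt1 (0.052), and Jund to Psmd8 (0.052), Dmap1 (0.065) and Usf1 (0.072). None of the 10 genes was among the 3 nearest of another.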

How the data were processed

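The authors deposited intensities on a linear scale, judged from the values, with near-equal trimmed means on every array (1486.5 to 1488.07 without controls, 2% removed at each end), so they were used as deposited. Which software made them the sources used here do not give. Intensities under the 10th percentile (36.4) were set to that value before the log2 step. After removal of 66 control probe sets, the 40% with the lowest mean signal were left out, leaving 7453. Probe sets just inside and outside this limit had mean signals of 349 and 348.9. All were fitted in limma 3.58.1 (R 4.3.3, trended eBayes) with genotype as the only term, two-sided, Benjamini-Hochberg adjusted over all 7453 at 0.05. The fit was tested on simulated data. Errors are SD over 2 pools for signals and limma's SE for log2 changes.

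The members and gene lists were chosen with earlier results of these data known. Lists were read by the brightest tested probe set of a gene, naming up to 4 called genes in each direction by smallest p, all called bZIP genes, and the 3 probe sets nearest to each called member. The gene in which the mice were heterozygous is not reported here. Of 12488 probe sets, 10855 carried 1 symbol, 396 several and 1237 none. Pool 1 minus pool 2 differences correlated at 0.158 between genotypes across probe sets, and the labels do not pair pools. Other marker lists gave, of those tested, 1 of 4 neutrophil markers lower, 2 of 3 erythroid higher, 1 of 6 smooth muscle higher, 6 of 9 skeletal muscle lower, 2 of 2 lung higher and 1 of 4 adipose lower. Alternatives were scaling, floor, dim-probe filter, moderation, pool number as a block and each pool left out.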

Additional observations from a re-analysis of the deposited data

How the results depend on the processing

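Of the 7 calls among the 10 genes, Jun's stood under all 14 alternatives. Leaving out the filter on dim probe sets raised the number tested and also refitted limma's moderation, so that SEs changed (Fos 0.17 to 0.08, Myc 0.41 to 0.42). What part each had in the calls was not tested. Calls over all probe sets then numbered 1205 in place of 2856. Of the 10 genes' probe sets 1 was higher (Jun) and 1 lower (Fos), with 4 other immediate early genes higher and 3 lower. Atf3 (1.00), Jund (-0.62), Egr1 (-0.61), Egr2 (-1.48) and Myc (-2.21) kept their sign but not their call. Median scaling gave 3 lower among the 10 genes and 3 lower among other immediate early genes. With 60% of probe sets left out, 3 were lower, because Egr2 and Myc were then not tested. Cardiomyocyte centring gave 1 probe set of the 10 genes higher and 7 lower, with 4 higher and 12 lower among other immediate early genes. It turned Fosb to -0.54 and Nr4a1 to -0.56. With moderation without a trend, Jund (-0.62) did not pass. Leaving out 1 pool gave 1707 to 2291 calls over all probe sets, 2 to 4 probe sets of the 10 genes lower, and 6 to 10 other immediate early genes higher and 3 to 4 lower; the lone pool of a genotype is then assumed to vary like the other pair. In such fits Fosb ranged from -0.23 to 0.35 and Nr4a1 from -0.10 to 0.19, both turning sign (Fosb also at -0.04). The causes were not tested. With the pool number as a replicate block, 3035 probe sets were called and the 7 calls among the 10 genes stood, with 13 other immediate early genes higher and 7 lower; the labels do not say that a number pairs pools. Both other floors changed none of these 7 calls. The number of arrays, 4, limits the precision, and the 4 dim probe sets of Fos, Egr1 and Atf3 were not tested.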
